A study of Mus musculus with 8 samples.

Results

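The 6 genes described here, Ngfr, Sox10, Erbb3, Foxd3, S100b and L1cam, are used to recognise neural crest cells and the Schwann cells that descend from them, and they were read in RNA sequencing of mouse embryonic fibroblasts. They are 6 of the 24972 genes in the table. Ngfr was chosen by its measured level, which was lower in Tfam+/-Zbp1-/- cells than in Zbp1-/- cells, so that difference is given as a description. The other 5 genes were added by name, to see whether genes of glial cells followed Ngfr.

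The cells were primary fibroblasts from embryos of embryonic day 14, passaged 2 times in serum-containing medium and left untreated. There were 4 genotypes with 2 libraries each: wild type (WT), heterozygous for the mitochondrial DNA packaging factor Tfam (Tfam+/-), lacking the nucleic acid sensor Zbp1 (Zbp1-/-), and carrying both changes (Tfam+/-Zbp1-/-, called the double mutant below). Each genotype was taken from the sample label. Nothing in the labels ties the 2 libraries of each genotype to different embryos, so p-values measure only the spread between libraries, which may be technical.

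Values are the authors' normalized counts. Library totals were 16752835 to 18303036 and 16051 to 16261 genes were above 0. Tfam read 610 and 629 in WT and 278 to 424 in the Tfam+/- and double mutant libraries, and Zbp1 read 64.6 and 69.8 in Tfam+/- and 0.86 to 7.34 in all other libraries. WT thus overlapped with Zbp1-/- in this gene, and its level does not check those 2 labels against each other. The fibroblast collagen gene Col1a1 read 103969 to 193671. An earlier analysis of these data found that Tfam+/- replicate 1 and Zbp1-/- replicate 2 were shifted together across many genes. Further values therefore come from a fit in which these 2 libraries share a term and from a fit of the other 6 libraries.

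The neural crest is a population of cells that leaves the dorsal neural tube, migrates through the embryo and forms, among other derivatives, peripheral glia, sensory neurons, melanocytes and the connective tissue of the face. Foxd3 and Sox10 are transcription factors that specify the crest, and Sox10 stays on in glia. Schwann cell precursors depend on the receptor Erbb3, which binds neuregulin from axons and signals with its partner Erbb2. Ngfr encodes p75NTR, a receptor for all neurotrophins that marks migrating crest cells and immature Schwann cells but is also made by some mesenchymal cells. S100b encodes a calcium-binding protein used as a mark of glia, which chondrocytes, adipocytes and melanocytes make as well. L1cam encodes an adhesion protein of axons and immature Schwann cells.

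The promoters of Ngfr and L1cam are shown because Ngfr is the gene chosen by its values, and L1cam gave all but 1 of the calls among the other 5. The table of RefSeq promoters (GRCm38.p6) held 4 of the 6 genes: Ngfr, Foxd3, S100b and L1cam. Each line gives 200 bases, from 250 to 51 bases before the RefSeq start, 5′ to 3′ on the gene's own strand, with the GC box GGGCGG (the sequence bound by SP1-family factors) in capitals. The Ngfr stretch is chr11:95587749-95587948 and the L1cam stretch is chrX:73880885-73881084, both on the minus strand. That table lists 2 starts for L1cam, and its stretch belongs to the outer of these.
Ngfr: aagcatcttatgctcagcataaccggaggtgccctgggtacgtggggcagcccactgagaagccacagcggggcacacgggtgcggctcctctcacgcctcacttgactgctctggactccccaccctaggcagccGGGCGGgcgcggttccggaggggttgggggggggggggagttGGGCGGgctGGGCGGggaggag
L1cam: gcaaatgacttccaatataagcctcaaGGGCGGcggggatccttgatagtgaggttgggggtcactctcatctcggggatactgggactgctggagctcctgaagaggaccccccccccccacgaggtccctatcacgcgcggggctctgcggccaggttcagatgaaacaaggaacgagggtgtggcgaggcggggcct
The Ngfr stretch held 3 GC boxes, 114, 72 and 63 bases before the start, and 70.0% of its bases were G or C. The L1cam stretch held 1, at 223 bases, with 62.0% G or C. Foxd3 and S100b held 0. Searched on both strands, the box was found in 24.6% of the 27025 promoter stretches of this length. The SOX core (ACAAAG or ACAATG, 21.4% of promoters), the AP-2 motif GCCNNNGGC (10.3%), the E-box CACCTG (14.4%) and TATAAA (9.49%) were not in any of the 4 windows. Bases closer to the start than 51 were not searched, so a TATAAA there would be missed. These are letter matches, and the data hold no measure of binding.

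All 6 genes passed the filter of a mean of at least 10 normalized counts over the 8 libraries, as did 13267 genes in all. Foxd3 passed narrowly, with a mean of 10.2. Differences are log2 changes with their standard error, from limma on log2(normalized count + 1) over all 8 libraries. A gene was called where its Benjamini-Hochberg adjusted p over all tested genes was under 0.05. On that scale, the changes of low genes such as Foxd3 are understated.

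Ngfr (mm10 chr11, 95568818 to 95587698) read 116 and 114 in the WT libraries, 104 and 107 with Tfam+/-, 266 and 374 with Zbp1-/- and 65.1 and 68.3 with both. The genotypes did not overlap, in the order Zbp1-/-, WT, Tfam+/-, double mutant. Relative to WT, Ngfr differed by 1.45 ± 0.18 in Zbp1-/- and -0.77 ± 0.18 in the double mutant on the log2 scale. The gene was therefore highest with Zbp1 absent and lowest with both genes changed.

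The difference between the double mutant and Zbp1-/- for Ngfr, by which the gene was chosen, was -2.23 ± 0.18 on the log2 scale. It was -1.98 without Zbp1-/- replicate 2 and -2.47 without Zbp1-/- replicate 1. Between the double mutant and Tfam+/- it was -0.66 ± 0.18. The interaction, which is the effect of Tfam heterozygosity in Zbp1-/- cells minus that in WT cells, was -2.11 ± 0.26. These comparisons share the libraries that chose the gene and are given without a test. The log2 change of Tfam+/- against WT is free of them, and there Ngfr differed by -0.12 ± 0.18 (limma adjusted p = 0.73). Its standard error and p come from the fit of all 8 libraries, so they include the spread within the genotypes that chose the gene.

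**Figure D1:**
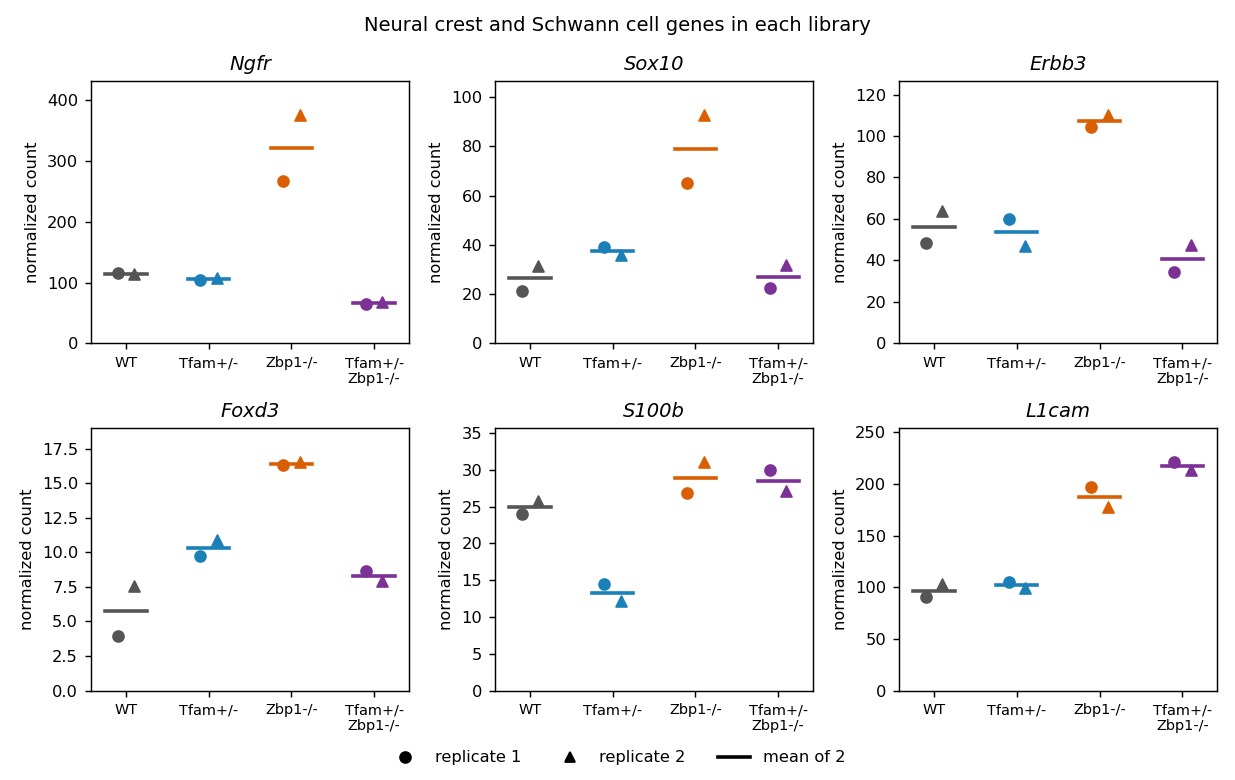
Normalized counts of the 6 genes in each of the 8 libraries, by genotype, 1 panel per gene; circles are replicate 1, triangles replicate 2 and lines the mean of 2. Ngfr, Sox10, Erbb3 and Foxd3 were highest in both Zbp1-/- libraries, while L1cam was highest in the double mutant and S100b lowest in Tfam+/-.

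Sox10 (chr15, 79154913 to 79164490), the transcription factor that maintains glial identity, read 21.3 and 31.5 in the WT libraries, 39.1 and 35.9 with Tfam+/-, 65.2 and 92.7 with Zbp1-/- and 22.4 and 31.9 with both. Both Zbp1-/- libraries were above every other library, and WT and the double mutant overlapped. The double mutant differed from Zbp1-/- by -1.50 ± 0.30 on the log2 scale, which was not called (adjusted p = 0.12). The same comparison gave -1.35 with adjusted p = 0.0021 with the shared term, and -1.25 with 0.011 in the other 6 libraries. Zbp1-/- differed from WT by 1.55 ± 0.30 in Sox10 (adjusted p = 0.075, and 0.0011 with the shared term).

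Erbb3 (chr10, 128567523 to 128589635), the neuregulin receptor of Schwann cell precursors, read 48.5 and 64.0 in the WT libraries, 60.1 and 47.0 with Tfam+/-, 104 and 110 with Zbp1-/- and 34.3 and 47.5 with both. Zbp1-/- stood above the rest without overlap, while Tfam+/- overlapped with WT and with the double mutant. The double mutant differed from Zbp1-/- by -1.39 ± 0.24 on the log2 scale (adjusted p = 0.089). With the shared term this was -1.28 (adjusted p = 4.7e-04), and in the other 6 libraries -1.35 (0.0012). The Zbp1-/- difference from WT in Erbb3 was 0.93 ± 0.24 (adjusted p = 0.13, and 0.010 with the shared term). RefSeq places 1 other gene, Mir6917, within the span of Erbb3, and the labels do not say whether counting used strand.

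Foxd3 (chr4, 99656299 to 99658671), an early crest specifier that is turned down as most crest cells differentiate, was the lowest of the 6. It read 3.95 and 7.57 in the WT libraries, 9.73 and 10.9 with Tfam+/-, 16.3 and 16.5 with Zbp1-/- and 8.62 and 7.94 with both. Its genotypes did not overlap, and WT was lowest. Foxd3 was not called in any comparison, with 1.42 ± 0.36 in Zbp1-/- against WT (adjusted p = 0.13) and -0.91 ± 0.36 in the double mutant against Zbp1-/- (adjusted p = 0.38). The shared term gave 1.45 (0.033) and -0.94 (0.20).

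S100b (chr10, 76253836 to 76261319) did not follow Ngfr across the 4 genotypes. It read 24.1 and 25.7 in the WT libraries, 14.5 and 12.2 with Tfam+/-, 26.8 and 31.0 with Zbp1-/- and 29.9 and 27.1 with both. Both Tfam+/- libraries lay below all others, and the double mutant and Zbp1-/- overlapped. The double mutant against Zbp1-/- gave -0.02 ± 0.23 (adjusted p = 0.97). S100b rose by 1.05 ± 0.23 on the log2 scale in the double mutant against Tfam+/- (adjusted p = 0.048), a call that was lost without any 1 of the 8 libraries (adjusted p 0.059 to 0.32). It was also lost with trimmed mean scaling (0.93, adjusted p = 0.069).

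L1cam (chrX, 73853778 to 73880838) was high in both genotypes that lack Zbp1. It read 90.4 and 103 in the WT libraries, 105 and 98.9 with Tfam+/-, 197 and 178 with Zbp1-/- and 221 and 214 with both. WT and Tfam+/- overlapped, and every library without Zbp1 lay above both. L1cam rose by 1.09 ± 0.14 in the double mutant against Tfam+/- (adjusted p = 0.0078), by 1.16 ± 0.14 against WT (0.022), and by 0.95 ± 0.14 in Zbp1-/- against WT (0.037).

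The double mutant differed from Zbp1-/- in L1cam by 0.21 ± 0.14 (adjusted p = 0.56), the side opposite to Ngfr, Sox10, Erbb3 and Foxd3. The L1cam call against Tfam+/- was lost without replicate 1 (adjusted p = 0.10) or 2 (0.090) of the double mutant. The call against WT was lost without either WT or either double mutant library (up to 0.27), and that of Zbp1-/- was lost without any 1 library other than those of Tfam+/- (up to 0.37). The Zbp1-/- call was also lost with trimmed mean scaling (0.84, adjusted p = 0.061).

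**Figure D2:**
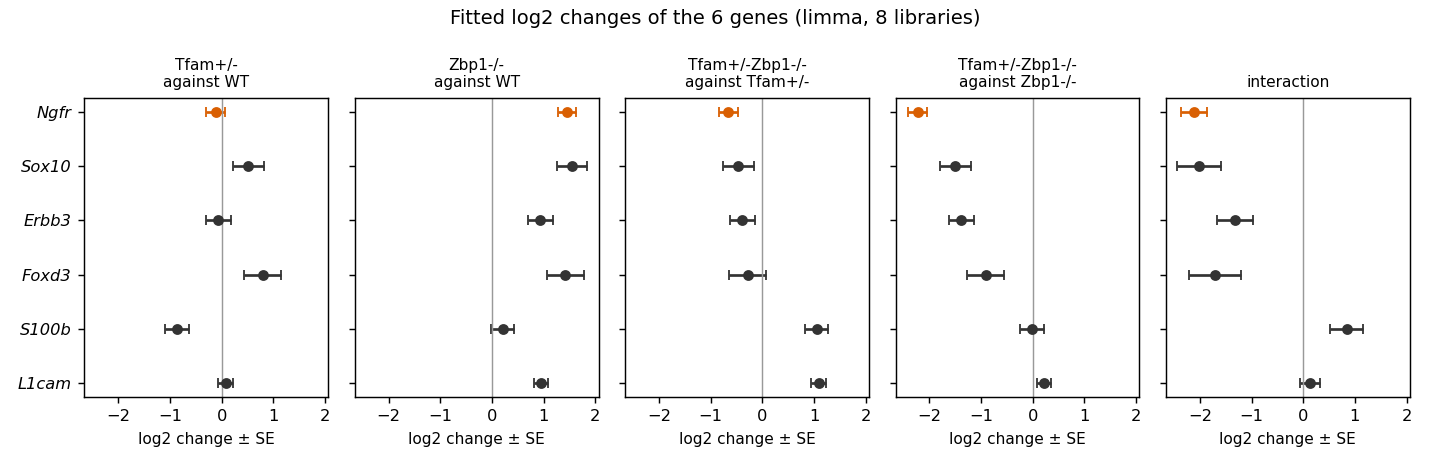
Log2 changes of the 6 genes (x axis) in Tfam+/- and Zbp1-/- against WT, the double mutant against Tfam+/- and Zbp1-/-, and the interaction, with bars of 1 standard error from limma; Ngfr is in orange. In the double mutant against Zbp1-/-, Ngfr, Sox10, Erbb3 and Foxd3 lie between -0.91 and -2.23, while S100b (-0.02) and L1cam (0.21) lie near 0.

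Counts of calls are given for the 5 genes other than Ngfr, since Ngfr was chosen by its values. limma called 0 of the 5 in Tfam+/- against WT, where 0.731% of all tested genes were called. Of the 5, 1, S100b, had an unadjusted p under 0.05 there, as did 1159 of all 13267 tested genes. In Zbp1-/- against WT, limma called 1 (L1cam, with 1.06% of all genes). The double mutant had 1 called against WT (L1cam, with 1.38% of genes) and 2 against Tfam+/- (S100b and L1cam, with 5.64%). For the double mutant against Zbp1-/-, 0 of the 5 were called, with 0.415% of genes. Sox10, Erbb3 and Foxd3 had an unadjusted p under 0.05 in limma there, as did 1626 of all 13267 genes.

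In the interaction, 0 of the 5 were called by limma, with 0.663% of genes. All but L1cam had an unadjusted p under 0.05, as did 2123 of all 13267 genes. The interaction was -2.02 ± 0.42 for Sox10 (adjusted p = 0.11), -1.32 ± 0.34 for Erbb3 (0.17) and -1.70 ± 0.51 for Foxd3 (0.22), and 0.84 ± 0.32 for S100b (0.30). The shared term, with 16.9% of all genes called, gave -1.71 (0.013) for Sox10 and -1.11 (0.042) for Erbb3.

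In Tfam+/- against WT, where no gene was chosen by its value, the 6 lay on both sides of 0 with a median of 0.00. Foxd3 differed by 0.79 ± 0.36 (adjusted p = 0.56) and Sox10 by 0.52 ± 0.30 (0.56), while S100b differed by -0.86 ± 0.23 (0.28) and Erbb3 by -0.07 ± 0.24 (0.88). Foxd3 and Sox10 thus had the opposite sign to S100b there, and none of the 6 passed the test. Of 13 tested transcription factors that specify the crest, these 2 among them, 7 lay above 0 and 6 below.

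The median log2 change of the 5 genes other than Ngfr was 0.95 in Zbp1-/- against WT and -0.91 in the double mutant against Zbp1-/-, beside 0.11 and 0.02 over all tested genes. The first of these background medians, and the 0.12 and 0.14 of the double mutant against WT and Tfam+/-, moved to between -0.00 and 0.02 with trimmed mean scaling. Sox10 in the double mutant against WT turned from 0.05 to -0.07 with that scaling. With the shared term, 2 of the 5 were called lower in the double mutant against Zbp1-/-, Sox10 and Erbb3, where 23.8% of all genes were called. That fit called 4 of the 5 in Zbp1-/- against WT, with 35.6% of all genes. Over the other 6 libraries alone, 2 and 3 of the 5 were called in these comparisons, with 23.4% and 34.3% of all genes. In these bulk libraries, fewer cells of a type and less RNA per cell cannot be told apart.

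Per kilobase of annotated exon, the genes could be set beside each other. In Zbp1-/-, the level was 92.9 normalized counts per kilobase for Ngfr, 35.5 for L1cam, 28.4 for Sox10, 19.5 for S100b, 17.8 for Erbb3 and 7.06 for Foxd3. In the double mutant L1cam led with 41.1, and Ngfr (19.3) and S100b (19.2) were close to each other. Ngfr was thus the most abundant of the 6 per length in Zbp1-/-, and L1cam in the double mutant.

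Over the 8 libraries, the tested genes most like Ngfr by Pearson correlation of log2 levels were Fat3 (0.98), Epas1, Pdzrn3, Gpx3 and Cadm4 (each 0.97). Fat3 encodes a large cadherin, Epas1 a hypoxia-inducible transcription factor, Pdzrn3 a ubiquitin ligase, Gpx3 a secreted glutathione peroxidase and Cadm4 an adhesion molecule of Schwann cells that holds them to the axon. Of the other 5 genes of the set, Erbb3 had a correlation with Ngfr of 0.94, Sox10 0.88, Foxd3 0.66, S100b 0.23 and L1cam 0.08. These are descriptions over the libraries that chose Ngfr. The points share genotypes, and 2 libraries set the high end.

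A wider list of 27 Schwann cell lineage genes, among them Sox10, Erbb3, Foxd3, S100b and L1cam, was read in the same way, and 19 were tested. From Zbp1-/- to the double mutant, 15 of the 19 lay below 0 with a median of -0.55. Of the 19, 2 were called, both lower, beside 0.415% of all genes. Cadm4 fell by 1.68 ± 0.22 (adjusted p = 0.045), from 137 and 178 in Zbp1-/- to 45.2 and 51.5. Adam23, which encodes a surface protein of the disintegrin family, fell by 0.78 ± 0.11 (0.048), from 1116 and 996 to 603 and 627. The Cadm4 call was lost without any 1 library other than those of Tfam+/- (up to 0.49), and the Adam23 call without any 1 of the 8 (up to 0.52).

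Cdh19, a cadherin of the Schwann cell precursor stage, read 94.6 and 92.5 in the WT libraries, 22.7 and 56.3 with Tfam+/-, 164 and 58.2 with Zbp1-/- and 39.6 and 34.4 with both. Tfam+/- replicate 1 and Zbp1-/- replicate 2, the libraries that were shifted together, were the lower of their pairs. Cdh19 differed between the double mutant and Zbp1-/- by -1.38 ± 0.55 (adjusted p = 0.39), and by -2.07 (5.4e-07) with the shared term. With that term, 11 of the 19 genes were called, all lower, beside 23.8% of all genes, and the other 6 libraries called 11, beside 23.4%.

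In Zbp1-/- against WT, 17 of the 19 tested Schwann lineage genes lay above 0 with a median of 0.46. L1cam was the only one called, beside 1.06% of all genes. The shared term called 14, all higher, beside 35.6% of all genes, and the other 6 libraries called 13, beside 34.3%. Against Tfam+/-, the double mutant was called higher in S100b and L1cam and lower in Gap43 and Ncam1, beside 5.64% of all genes. Gap43, a growth cone protein that non-myelinating Schwann cells also make, fell by 1.03 ± 0.11 (adjusted p = 0.0049), and the adhesion gene Ncam1 by 0.48 ± 0.10 (0.049). The Gap43 call was lost without either double mutant library (up to 0.074), and the Ncam1 call without any 1 library other than those of Zbp1-/- (up to 0.33). Gap43 rose by 0.97 ± 0.11 in Tfam+/- against WT (0.017, lost without 5 of the 8 libraries). It was the only Schwann lineage gene called there, beside 0.731% of all genes.

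The level of genes of myelin and of the promyelinating stage varied by gene. Among the tested ones, Mbp read 108 to 273, Prx 157 to 376, Cnp 236 to 369 and Egr2 27.2 to 54.5. Of the 8 Schwann lineage genes that were not tested, the myelin gene Mag read 0 to 3.86, Mal 0 to 4.11, Gfap 0.98 to 5.80 and the promyelinating factor Pou3f1 0 to 2.07. The list's summed level, mostly Pmp22 and Ncam1, was 7877 to 7920 in WT, 8205 to 8533 in Tfam+/-, 9674 to 10481 in Zbp1-/- and 7165 to 7201 in the double mutant. Fibroblasts also make Pmp22 and Ncam1, so this sum is not a measure of glia alone.

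Sox2, a factor of immature and dedifferentiated Schwann cells, had its higher values in both genotypes that lack Zbp1, as L1cam did. It read 13.9 and 19.0 in WT and 10.8 and 18.8 in Tfam+/-, and 35.8 to 41.3 in the 4 libraries without Zbp1. The Sox2 change was 1.19 ± 0.32 in Zbp1-/- against WT (adjusted p = 0.14) and 1.40 in the double mutant against Tfam+/- (0.054).

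**Figure D3:**
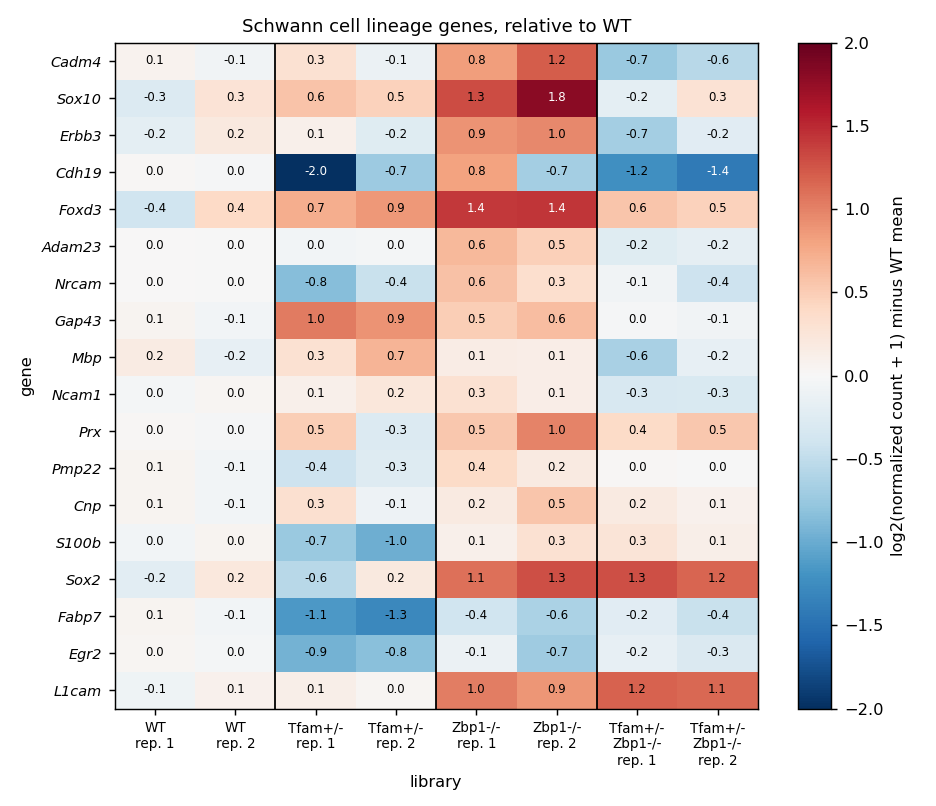
Heat map of 18 of the 19 tested Schwann cell lineage genes (rows) in the 8 libraries (columns), as log2(normalized count + 1) minus the WT mean; red is higher than WT and blue lower. Sox10, Erbb3 and Cadm4 have their strongest red in the Zbp1-/- libraries, L1cam and Sox2 are red in all 4 libraries without Zbp1, and Cdh19 is lowest in Tfam+/- replicate 1.

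Transcription factors that specify the neural crest were read as a list that holds Sox10 and Foxd3. Of 14 specifiers, 13 were tested, and their median was 0.55 in Zbp1-/- against WT and 0.08 in the double mutant against Zbp1-/-. In the first, 2 were called (Pax3 and Tfap2b), beside 1.06% of all genes. In the second, 1 was called (Tfap2b), beside 0.415%. The shared term gave a median of 0.50 with 10 called, all higher, in the first, and -0.12 with 4 called higher and 4 lower in the second, beside 35.6% and 23.8% of all genes. Tfap2b, an AP-2 transcription factor of the crest, read 165 and 177 in the WT libraries, 190 and 217 with Tfam+/-, 382 and 324 with Zbp1-/- and 701 and 688 with both. Tfap2b rose by 1.04 ± 0.14 in Zbp1-/- against WT (adjusted p = 0.029) and by a further 0.98 ± 0.14 from there to the double mutant (0.0495, and 0.052 with trimmed mean scaling). Both calls were lost without any 1 library other than those of Tfam+/- (up to 0.32 and 0.52).

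Specifiers called in the double mutant numbered 4 against WT, all higher (Pax3, Tfap2b, Msx1, Tfap2a), and 4 against Tfam+/-, all higher (Twist1, Tfap2b, Msx1, Tfap2a), beside 1.38% and 5.64% of all genes. The shared term called 7 higher and 1 lower against WT, and 6 higher and 1 lower against Tfam+/-, beside 42.5% and 45.6%. Msx1, a homeobox factor of crest and limb mesenchyme, read 231 and 202 in the WT libraries, 236 and 154 with Tfam+/-, 454 and 536 with Zbp1-/- and 742 and 757 with both. Against Tfam+/-, Msx1 rose by 1.97 ± 0.21 (adjusted p = 0.0048) and Tfap2a by 1.47 ± 0.18 (0.0069). The 4 calls against Tfam+/- were lost without either double mutant library (up to 0.12), and the 4 against WT without either WT or either double mutant library (up to 0.27). Msx1, Twist1 and Tfap2a are also made by limb and facial mesenchyme, so they do not mark glia.

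Pax3, a paired-box factor of the dorsal neural tube, crest and muscle precursors, read 43.5 and 49.0 in WT and 119 to 158 in the other 6 libraries. It rose against WT in Tfam+/- (1.59 ± 0.19, adjusted p = 0.021), Zbp1-/- (1.51, 0.027) and the double mutant (1.54, 0.024). The comparisons share the WT libraries, and each call was lost without either of them. In all, the Tfam+/- call was lost without 5 of the 8 libraries, that of Zbp1-/- without 6 and that of the double mutant without 4. Pax3 differed between the double mutant and Zbp1-/- by 0.03; its low genotype was WT. Pax7, which marks crest and muscle precursors, read 0 to 12.8 and was not tested.

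**Figure D4:**
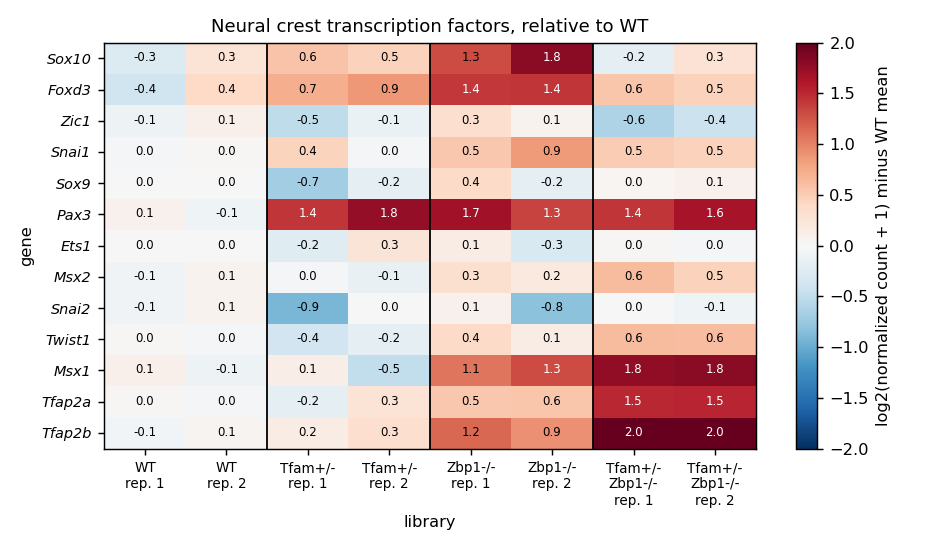
Heat map of the 13 tested neural crest transcription factors (rows) in the 8 libraries (columns), as log2(normalized count + 1) minus the WT mean; red is higher than WT and blue lower. Tfap2b, Tfap2a and Msx1 are highest in both double mutant libraries, Pax3 is red in all 6 libraries that are not WT, and Sox10 and Foxd3 are highest in Zbp1-/-.

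The ligands of p75NTR did not pass the test in any of the 6 comparisons: limma called 0 of 4 neurotrophin genes. In each comparison 0 or 1 of them had an unadjusted p under 0.05, beside 1159 to 2756 of all 13267 genes. Bdnf read 582 to 959 over the 8 libraries, Ntf3 46.9 to 98.7 and Ntf5 16.6 to 27.4. The shared term called 2 of the 4 lower in Zbp1-/- against WT, beside 35.6% of all genes, and 1 higher in the double mutant against Zbp1-/-, beside 23.8%. It called 1 lower in the double mutant against WT and 1 lower against Tfam+/-, beside 42.5% and 45.6%.

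Of 11 receptors and co-receptors for neurotrophins, 8 were tested. Apart from Ngfr, 1 was called: the sorting receptor Sorl1 read 108 and 109 in the WT libraries, 125 and 152 with Tfam+/-, 207 and 196 with Zbp1-/- and 234 and 264 with both. Sorl1 rose by 1.19 ± 0.15 in the double mutant against WT (adjusted p = 0.023) and by 0.85 ± 0.15 against Tfam+/- (0.023). These calls stood beside 1.38% and 5.64% of all genes. The first call was lost without either WT or either double mutant library (up to 0.27), the second without 5 of the 8 libraries (up to 0.22). The BDNF receptor Ntrk2 read 43.0 and 64.5 in Zbp1-/- and 16.8 to 37.8 elsewhere, with 1.07 ± 0.30 against WT (adjusted p = 0.16). The neurotrophin-3 receptor Ntrk3 read 2.69 to 12.0 and was not tested. Of 19 genes that process p75NTR or carry its signal inside the cell, 18 were tested and limma called 0 in all 6 comparisons. In each, 1 to 4 of them had an unadjusted p under 0.05, beside 1159 to 2756 of all 13267 genes. Of the 18, the shared term called 7 in Zbp1-/- against WT and 3 in the double mutant against Zbp1-/-, beside 35.6% and 23.8% of all genes. It called 11 in the double mutant against WT and 9 against Tfam+/-, beside 42.5% and 45.6%.

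Around Erbb3, its partner Erbb2 read 610 and 653 in the WT libraries, 737 and 555 with Tfam+/-, 697 and 942 with Zbp1-/- and 777 and 757 with both. The ligand Nrg1 read 426 to 569 over the 8 libraries and Nrg3 was at 0 in all 8. Of 12 genes of neuregulin and ErbB signalling, 9 were tested and 1 was called: Egfr, the epidermal growth factor receptor. Egfr fell by 0.57 ± 0.09 in the double mutant against WT (limma adjusted p = 0.045), where 1.38% of all genes were called. The Egfr call was lost without any 1 library other than those of Tfam+/-.

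**Figure D5:**
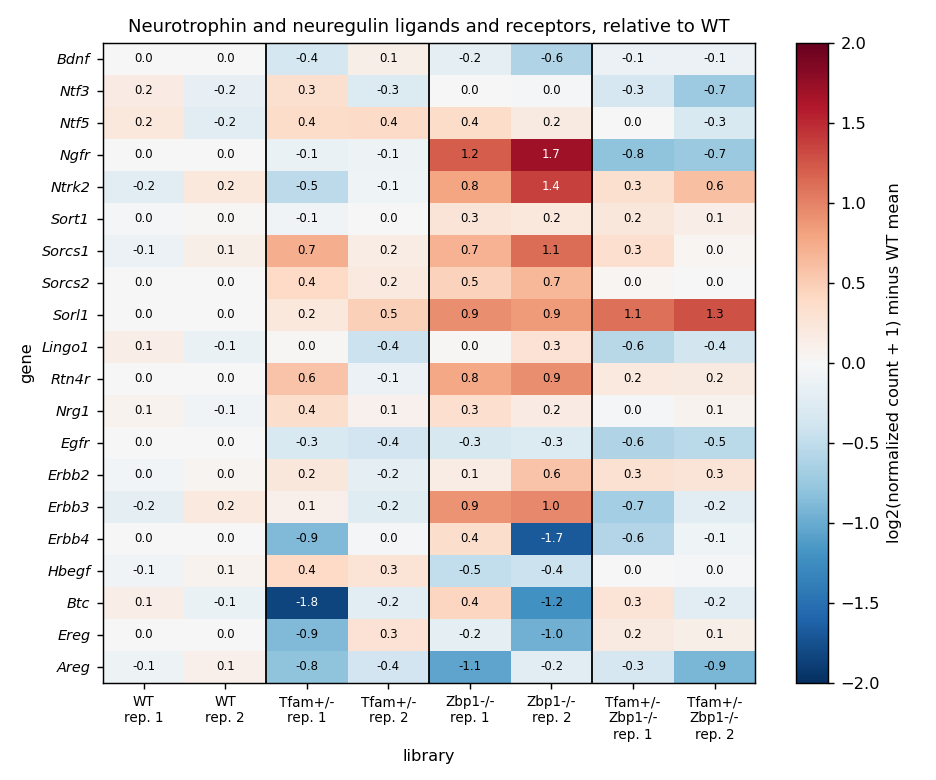
Heat map of tested neurotrophin and neuregulin ligands and receptors (rows) in the 8 libraries (columns), as log2(normalized count + 1) minus the WT mean; red is higher than WT and blue lower. Ngfr is red in both Zbp1-/- libraries and blue in both double mutant libraries, and Sorl1 is highest in the double mutant.

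Of the L1 family and its ligands, 7 of 8 genes were tested and L1cam alone was called. L1cam was called in Zbp1-/- against WT, beside 1.06% of all genes, and in the double mutant against WT and Tfam+/-, beside 1.38% and 5.64%. Its close relative Chl1 read 148 and 173 in the WT libraries, 93.6 and 158 with Tfam+/-, 367 and 210 with Zbp1-/- and 235 and 251 with both. Chl1 was above WT in all 4 libraries without Zbp1, with 0.79 ± 0.33 in Zbp1-/- (adjusted p = 0.25).

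Of the markers of other crest derivatives, 9 of 22 passed the filter. Of 8 melanocyte genes, Tyr was at 0 in all 8 libraries, and Dct, Tyrp1 and Mlana read at most 1.96, 1.01 and 2.13. Ednrb, the endothelin receptor that melanocyte precursors and other mesenchymal cells use, was 1 of the 2 tested, with Mitf (52.9 to 178), and it rose by 1.86 ± 0.29 in the double mutant against Tfam+/- (adjusted p = 0.015, lost without either double mutant library, up to 0.13). Of 14 neuronal genes, 7 were tested. Elavl3, Snap25, Rbfox3, Th and Dbh read at most 2.80, while Tubb3 read 493 to 987, Stmn2 396 to 706, and Elavl4, Syt1, Nefl, Nefm and Prph 5.82 to 41.1. Stmn2, a regulator of microtubules in growing axons, rose by 0.69 ± 0.12 in the double mutant against WT (adjusted p = 0.048, lost without any 1 library other than those of Tfam+/-, up to 0.43).

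Genes of other cell types differed between the genotypes too. The summed level of 8 leukocyte genes, mostly Lyz2, was 4282 to 4324 in WT and 4942 to 5400 in Tfam+/-. It was 2522 to 2774 in Zbp1-/- and 2214 to 2240 in the double mutant. In Zbp1-/- against WT, 7 of the 8 lay below 0 and 1, Cd14, above. Of the 8, 7 were called lower in the double mutant against Tfam+/-, beside 5.64% of all genes. Each of these calls was lost without either double mutant library, and some of them without other libraries as well. Between the double mutant and Zbp1-/-, where Ngfr was chosen, 0 of the 8 leukocyte, 10 fibroblast and 8 pericyte and smooth muscle genes were called, with medians of -0.24, -0.33 and -0.37. At an unadjusted p under 0.05 in limma, there were 3, 6 and 4 of them, beside 1626 of all 13267 tested genes. With the shared term, 5, 10 and 7 of them were called, beside 23.8% of all genes. The part of these cells in the levels of Ngfr, Sox10 and Erbb3 was not tested.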

How the data were processed

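Total RNA of primary fibroblasts from mouse embryos was sequenced in 8 libraries, 2 per genotype. The deposited table holds the authors' normalized counts per gene, a signal that is never negative and not whole. Per the series' design text, reads were aligned with STAR in the RNAseq Alignment V2.0.0 software to mm10 with RefSeq genes, and compared with RNA-seq Differential Expression V1.0.0; per the submitters' processing notes, STAR was 2.6.1a and Salmon was used. How reads were counted, whether strand was used and how counts were scaled is not given in the sources here. Between 22.2% and 35.0% of each library's low values, divided by its most repeated value, lay within 0.01 of a whole number. Reads were therefore not recovered and no count model was run.

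The test was limma 3.58.1 (R 4.3.3) on log2(value + 1), with genes of a mean of at least 10, all 4 genotypes in 1 fit, a mean-variance trend and Benjamini-Hochberg adjustment over all 13267 genes. There were 4 residual and 2.77 prior degrees of freedom. An exact permutation test of 2 against 2 libraries cannot go below p = 0.333 and was not used. The script was tested on simulated data.

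The 6 genes and the gene lists were chosen with earlier results of these data known. Named are the 6 genes, called genes of the neurotrophin, receptor and neuregulin lists, the 5 genes most correlated with Ngfr, from every other list at most 3 tested genes with the largest change in the double mutant against Zbp1-/-, and genes at 0; other genes named were chosen after their values were seen. Coordinates are from RefSeq GRCm38.p6 (mm10), 1-based, and 97.7% of symbols matched it. Exon lengths are from GENCODE M21. Tried as alternatives were a pseudocount of 0.1 or of 5, all genes without a filter, a minimum mean of 50, trimmed mean of M-values scaling (computed in R), a prior without trend, only the genotypes compared, a replicate block and each library left out. A term shared by Tfam+/- replicate 1 and Zbp1-/- replicate 2, the other 6 libraries alone, and a crossed block were chosen after seeing the data. The lone library of a genotype is then assumed to vary like the other genotypes. Values of a few genes of the lists are not reported here; the list counts include them.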

Additional observations from a re-analysis of the deposited data

Results flagged for a closer look

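Gap43 is given here because the effect of Tfam heterozygosity on it differed between the Zbp1 backgrounds. It read 594 and 548 in the WT libraries, 1178 and 1070 with Tfam+/-, 806 and 874 with Zbp1-/- and 560 and 542 with both. Tfam+/- differed from WT by 0.97 ± 0.11 on the log2 scale, and the double mutant from Zbp1-/- by -0.61 ± 0.11, so the interaction was -1.58 ± 0.16 (limma, Benjamini-Hochberg adjusted p = 0.019). That call was lost without 5 of the 8 libraries (adjusted p up to 0.21), kept without either Tfam+/- library or Zbp1-/- replicate 1, and the fit with the shared term and that of the other 6 libraries both gave -1.45.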

How the results depend on the processing

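Of 660 single-gene values for the 6 genes under the alternatives, 600 were labelled the same, 30 lost and 14 gained a call, 6 moved and 10 reversed. The same meant the same direction and side of the threshold, except for Ngfr outside Tfam+/- against WT. There it meant the same direction and a log2 change within the standard error of the main value, and moved meant a larger shift. Calls of Ngfr lost or gained in those comparisons are therefore not among the 30 and 14. The reversals all had small main values. For Sox10 in the double mutant against WT they were -0.065 with trimmed mean scaling, -0.23 without WT replicate 1 and -0.20 without double mutant replicate 2 (-0.23 to 0.32 without 1 library). For Erbb3 in Tfam+/- against WT they were 0.13 without WT replicate 2 and 0.11 without Tfam+/- replicate 2 (-0.26 to 0.13). For S100b in the double mutant against Zbp1-/- they were 0.083 without Zbp1-/- replicate 2, 0.05 without double mutant replicate 2, 0.090 with the shared term and 0.083 in the other 6 libraries (-0.12 to 0.083). For L1cam in Tfam+/- against WT it was -0.017 without WT replicate 1 (-0.017 to 0.17).

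Counts of calls depended on the setting, and the cause was not tested. The share of all genes called changed with the setting too, and is given for the shared term at the end of this section. The counts include Ngfr where it was called, which is a description outside Tfam+/- against WT. Of the 6 genes, the count for Tfam+/- against WT was 0, and 1 with the shared term. For Zbp1-/- against WT it was 2, but 1 with no filter or trimmed mean scaling, 0 with only the genotypes compared or the replicate block, 5 with the shared term, 4 in the other 6 libraries and 0 to 2 without 1 library. For the double mutant against WT it was 1, but 2 with only the genotypes compared, the shared term or the 6 libraries, 0 with the replicate block and 0 to 1 without 1 library. Against Tfam+/- it was 2, but 1 with no filter, a mean of at least 50, trimmed mean scaling, only the genotypes compared, the replicate block or the crossed block, and 0 to 2 without 1 library. Against Zbp1-/- it was 1, Ngfr itself, but 0 with only the genotypes compared or the replicate block, and 3 with the shared term. For the interaction it was 1, again Ngfr, but 0 with the replicate block and 3 with the shared term. Both Ngfr calls were lost without some single libraries. Of the other 5 genes, the main fit called 0 in both comparisons, and the shared term called 2, Sox10 and Erbb3.

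Of the 19 Schwann lineage genes, Tfam+/- against WT called 1, but 2 with the prior without trend, 0 with only the genotypes compared or the replicate block, 7 with the shared term or the 6 libraries, and 0 to 1 without 1 library. Zbp1-/- against WT called 1, but 0 with no filter, trimmed mean scaling, only the genotypes compared or the replicate block, 14 with the shared term, 13 in the 6 libraries, 2 with the crossed block and 0 to 1 without 1 library. The double mutant against WT called 1, but 0 with the replicate block and 9 with the shared term, beside 42.5% of all genes. It also called 9 with only the genotypes compared, a count that cannot be read without the share over all genes, which is not given. The 1 call, L1cam, was lost without either WT or either double mutant library. Against Tfam+/- it called 4, but 2 with no filter, a mean of at least 50, only the genotypes compared or the replicate block, 12 with the shared term or the 6 libraries, and 0 to 3 without 1 library. Against Zbp1-/- it called 2, but 0 with no filter, only the genotypes compared or the replicate block, 1 with the prior without trend or the crossed block, 11 with the shared term or the 6 libraries, and 0 to 1 without 1 library. The interaction called 1, but 0 with the replicate block, 9 with the shared term, 10 in the 6 libraries, 2 with the crossed block and 0 to 1 without 1 library.

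Over all genes, the shared term called 15.6% in Tfam+/- against WT, 35.6% in Zbp1-/- against WT and 16.9% in the interaction. In the double mutant, it called 42.5% against WT, 45.6% against Tfam+/- and 23.8% against Zbp1-/-. The counts of calls under that term are to be read beside these shares. For only the genotypes compared, the share over all genes is not given here. The replicate numbers do not pair the libraries: correlations of the replicate differences ran from -0.698 (Tfam+/- with Zbp1-/-) to 0.059. With 2 libraries per genotype and values near 10, a gene such as Foxd3 allows only wide statements.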
